A study of Mus musculus with 6 samples.

Results

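Interferon-stimulated genes were examined in mouse acute myeloid leukaemias started in different blood progenitors. The set held 35 genes, chosen by symbol, and all 35 were among the 33924 gene rows of the deposited count table. RNA sequencing had been done on 6 libraries, 3 of leukaemias grown from LSK cells (lineage-negative marrow cells positive for Sca-1 and Kit, a fraction rich in stem cells) and 3 of leukaemias grown from granulocyte-macrophage progenitors (GMP). In both groups the starting cells had been transduced with a retrovirus carrying the MLL-AF9 oncogene, and GFP+ cells had been transplanted into C57BL/6 mice irradiated with 950 cGy, together with wild-type support marrow. Leukaemia cells were taken from the marrow of moribund mice and kept in medium with 15% serum, 20 ng/mL SCF, 10 ng/mL IL-3 and 10 ng/mL IL-6. Apart from the retroviral transduction, no interferon, virus or inhibitor treatment is named for any library. The comparison is therefore of cultured cells for which no such treatment is named. The age of the animals is not given in the sources used here. Libraries are called LSK 44, LSK 45, LSK 46, GMP 5, GMP 11 and GMP 19, by the numbers in their titles. Whether those of a group came from separate transductions, clones or mice is not stated, so a p-value covers no more than library-to-library spread, which may be technical.

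Interferons are secreted proteins that put cells into an antiviral state. Type I interferons act through JAK1 and TYK2, which phosphorylate STAT factors. A complex with IRF9 then binds the interferon-stimulated response element in the promoters of their target genes. Interferon gamma acts through JAK1 and JAK2 on promoters with a gamma-activated site, and induces IRF1 and several families of large GTPases. Haematopoietic stem cells are known to express some interferon-stimulated genes without infection, and interferon drives them out of quiescence.

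The response element was found in most of the promoter windows at hand, and its matches are shown here because type I interferon acts on promoters through it. RefSeq windows of 250 bases before to 50 bases after the annotated start (GRCm38.p6) were found for 27 of the 35 genes. Windows were searched on both strands for the core of the element, GAAA, then any 2 bases, then GAAA, and 17 of the 27 genes (63.0%) held it, against 3.99% of all genes with a window. The gamma-activated core TTCNNNGAA, which can overlap the first motif, was in the windows of 7 of the 27 (25.9%), against 9.55% of all genes. A match is a description of letters and does not show binding. Stretches from 12 genes follow, 5′ to 3′ on the strand of the gene, with the letters of the core (or of its reverse complement, which starts and ends with TTTC) in capitals. Those of Ifih1 and Ifitm3 lie after the start and are given with 8 flanking bases, the others with 20, and a capital in a flank belongs to a neighbouring match.
Oas1a, chr5:120907510-120907565, minus strand: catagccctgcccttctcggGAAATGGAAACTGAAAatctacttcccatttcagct
Oas1g, chr5:120887596-120887651, minus strand: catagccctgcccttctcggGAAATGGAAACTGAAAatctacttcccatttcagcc
Oas3, chr5:120777705-120777754, minus strand: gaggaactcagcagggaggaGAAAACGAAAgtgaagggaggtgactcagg
Ifih1, chr2:62646206-62646231, minus strand: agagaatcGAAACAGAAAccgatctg
Isg15, chr4:156200855-156200916, minus strand: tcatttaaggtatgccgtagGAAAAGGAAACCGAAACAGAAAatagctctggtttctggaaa
Ifit1, chr19:34640784-34640833, plus strand: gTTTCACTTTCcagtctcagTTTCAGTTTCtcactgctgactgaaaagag
Rsad2, chr12:26456543-26456592, minus strand: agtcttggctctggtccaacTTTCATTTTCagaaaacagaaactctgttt
Bst2, chr8:71537567-71537622, minus strand: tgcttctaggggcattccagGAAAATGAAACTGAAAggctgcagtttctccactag
Gbp3, chr3:142559979-142560034, plus strand: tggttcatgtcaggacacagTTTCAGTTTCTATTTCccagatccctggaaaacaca
Igtp, chr11:58199502-58199551, plus strand: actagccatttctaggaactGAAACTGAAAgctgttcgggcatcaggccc
Irgm1, chr11:48871415-48871470, minus strand: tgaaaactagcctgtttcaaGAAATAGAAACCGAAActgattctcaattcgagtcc
Ifitm3, chr7:141010708-141010733, minus strand: ActtctgaGAAACCGAAActgccgca

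**Figure D1:**
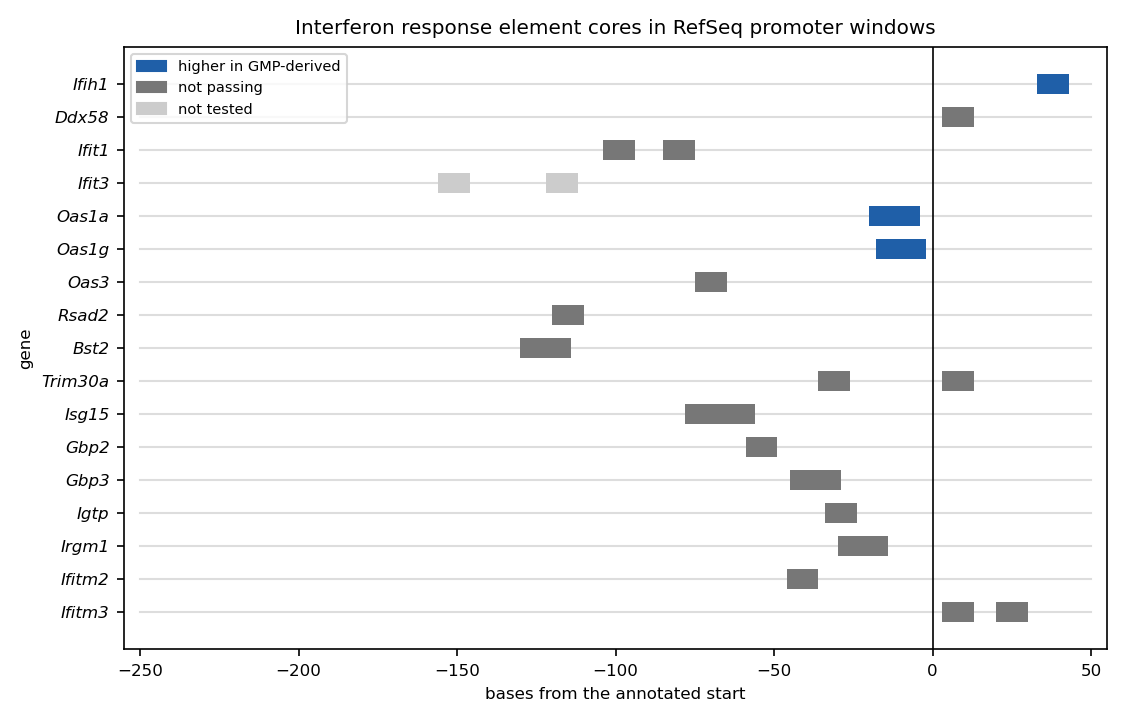
Position of each match to the response element core (bars, overlapping matches joined) in the promoter windows of the 17 genes that held it; the x axis gives bases from the annotated start and the grey line spans the window, from 250 bases before to 50 after. Colour gives the result of the expression test, and Trim30a has a match in each of its separate windows.

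Oas1a and Oas1g, which both carry the run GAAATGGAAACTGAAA just before their start, had windows that were 85.3% identical over 306 aligned columns. Of the 24 genes with a window that could be tested for expression, 16 held the core and 8 did not. Of the genes named below as differing, Ifih1, Oas1a and Oas1g were among the 16, where the median log2 fold change was -0.39 and 11 values were negative. Among the 8 without it the median was -0.13 and 7 values were negative, and none passed edgeR's test, in which 13.9% of all tested genes were higher in GMP-derived libraries. Zbp1 and Oas2, which differed too, had no window.

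The library totals spanned 16640929 (LSK 44) to 33885428 (GMP 11) counts. A level of 3 counts, taken here as the floor for genes with 0 counts, is 0.180 CPM in LSK 44 and 0.0885 CPM in GMP 11. Every pair of libraries within a group was further apart than sampling of counts allows (chi-square per degree of freedom at least 10.5). Of 8 genes checked as markers of myeloid leukaemia cells, Ptprc, Sfpi1 (PU.1), Cebpa, Itgam, Kit, Hoxa9 and Meis1 were at 85.9 CPM or more in every library. Mpo ran from 13.8 CPM in GMP 5 to 1406 CPM in LSK 44. Ptprc (1.60-fold, edgeR adjusted p = 0.00632), Cebpa (1.78-fold, 0.0112) and Hoxa9 (1.72-fold, 0.000682) were higher in GMP-derived libraries. Kit was 1.68-fold higher in LSK-derived ones (edgeR adjusted p = 0.0134), and Sfpi1, Mpo, Itgam and Meis1 did not pass. Of 8 markers of T and NK cells, Cd3e, Ncr1 and Gzma had 0 counts and the summed level was at most 1.21 CPM in any library. In LSK-derived libraries this was mostly Klrb1c, with 51 LSK-derived and 2 GMP-derived counts. Klrb1c, the 1 marker of this list that was tested, was higher in LSK-derived libraries (edgeR adjusted p = 0.00518). Of 6 B cell markers, Ms4a1 and Pax5 had 0 counts and Cd79b gave nearly all of a sum of 14.2 to 22.0 CPM among LSK-derived and 3.65 to 7.70 CPM among GMP-derived libraries, a 3.31-fold higher level in the former (edgeR adjusted p = 0.00948). Among plasmacytoid dendritic cell markers, Siglech, which defines these strong interferon producers, was at 0.164 to 2.52 CPM, and Tcf4, which other cells also express, gave most of a sum of 178 to 215 CPM among LSK-derived and 158 to 330 CPM among GMP-derived libraries. Of the 5 of these 8 markers that were tested, Pacsin1 (4.32 against 0.228 CPM, edgeR adjusted p = 0.00327) and Spib (1.65 against 0.358 CPM, 0.0133) were higher in LSK-derived libraries, Cox6a2 (1.52 against 3.19 CPM, 0.0310) was lower, and Siglech and Tcf4 did not pass. Of 8 stromal and endothelial markers Col1a2 had 0 counts, and the sum was 191 to 330 and 148 to 227 CPM, mostly Pecam1. Pdgfrb was at 0.545 to 4.84 CPM against 13.9 to 36.4 CPM and higher in GMP-derived libraries (edgeR adjusted p = 0.0206). Pecam1 and Lepr, the others tested, did not pass. The part of these markers in the results below was not tested.

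Of the 35 genes, 31 had enough counts to be tested, and Ifit3, Oasl1, Mx2 and Ifi44 did not. Levels are in CPM, counts scaled to a total of 1000000 with TMM factors, and stand in the order LSK 44, LSK 45, LSK 46 against GMP 5, GMP 11, GMP 19. A negative log2 fold change, given with an approximate standard error, means a higher level in the GMP-derived libraries. In edgeR's quasi-likelihood test 5 of the 31 genes were higher in the GMP-derived leukaemias (16.1%), where 13.9% of all 13406 tested genes were. In either direction 25.7% of all tested genes passed. The 5 genes were Ifih1, Zbp1, Oas1a, Oas1g and Oas2. None of the 31 was higher in the LSK-derived leukaemias, where 11.8% of all tested genes were. The share higher in GMP-derived libraries was close to that of all genes in edgeR's test, and how it compared depended on the tool. It was 9 of 31 (29.0%, against 20.7% of all tested genes) at an unadjusted p below 0.05, 8 (25.8%, against 16.3%) with DESeq2, 3 (9.68%, against 13.0%) with limma voom and 7 (22.6%, against 16.7%) with sample weights added. The count higher in LSK-derived libraries was 1 at an unadjusted p below 0.05 (against 18.6% of all tested genes), 0 with DESeq2 (14.0%), 0 with limma voom (11.7%) and 1 with sample weights (14.6%). In all, 22 of the 31 had a negative log2 fold change (71.0%, against 48.6% of all tested genes), with a median of -0.37 against 0.01. Without GMP 19 the median was -0.12. Libraries of the groups did not overlap for 12 of the 31 (against 45.4% of all tested genes), 9 with the GMP-derived above (29.0%, against 22.8% of all tested genes) and 3 with the LSK-derived above (9.68%, against 22.5%).

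**Figure D2:**
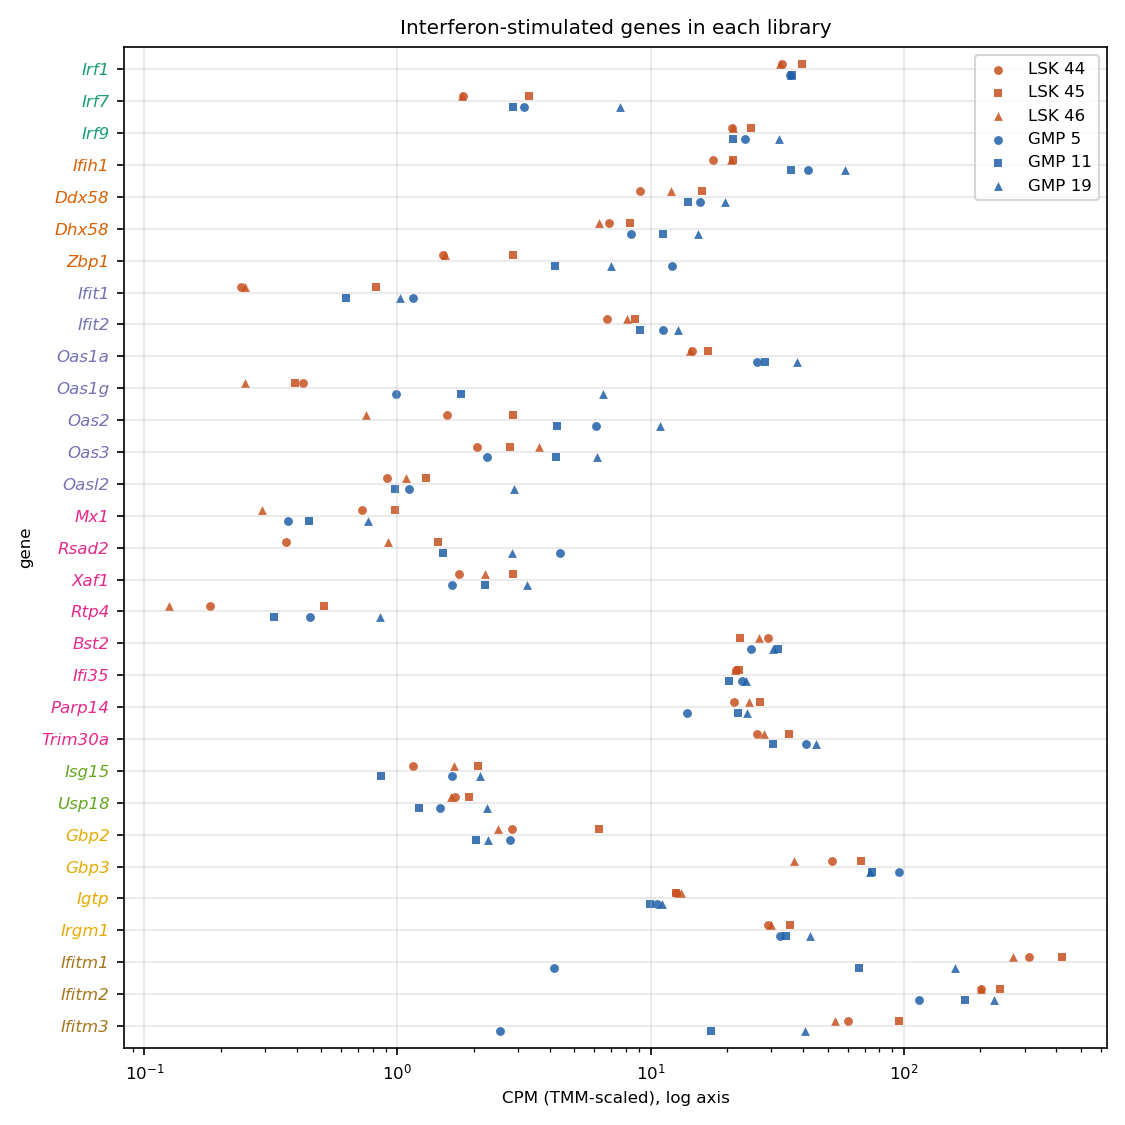
CPM of the 31 tested genes in each of the 6 libraries (log axis), LSK-derived above GMP-derived within each row. Ifitm1 ran from 4.14 CPM in GMP 5 to 423 CPM in LSK 45, while Irf1 and Ifi35 lay close together in all libraries.

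Sensors of viral nucleic acid all had negative log2 fold changes, where 48.6% of all tested genes did. In edgeR's test 2 of 4 passed, where 13.9% of all tested genes were higher in GMP-derived libraries. With limma voom it was 1 of 4, against 13.0%. With DESeq2 and with sample weights it was 3 of 4, against 16.3% and 16.7%. Ifih1 encodes MDA5, which binds long double-stranded RNA. It stood at 17.6, 21.2 and 20.7 CPM against 41.8, 36.0 and 58.6 CPM. Every GMP-derived library lay above every LSK-derived one, and the mean was 2.29-fold higher (log2 fold change -1.19 ± 0.19, edgeR adjusted p = 0.00606). The call held in all 13 alternatives (adjusted p up to 0.0322).

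Zbp1 encodes a sensor of Z-form nucleic acid that can start necroptosis. It stood at 1.51, 2.87 and 1.54 CPM against 12.1, 4.19 and 6.95 CPM. The groups did not overlap, GMP 5 was the highest library, and the log2 fold change was -1.96 ± 0.46 (edgeR adjusted p = 0.0228). The call was lost with limma voom (0.0511) and without LSK 44 (0.0877), LSK 46 (0.0880) or GMP 19 (0.0546), in a range from 0.000203.

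The other RIG-I-like receptors did not pass. Ddx58, which encodes RIG-I, the sensor of RNA with a triphosphate end, was at 9.07, 15.9 and 12.1 CPM against 15.7, 14.0 and 19.7 CPM, with overlapping groups (log2 fold change -0.41 ± 0.23, edgeR adjusted p = 0.226). Dhx58, which encodes the regulator LGP2, was at 6.84, 8.28 and 6.25 CPM against 8.36, 11.2 and 15.4 CPM. Its groups did not overlap by a narrow margin (log2 fold change -0.71 ± 0.24, edgeR adjusted p = 0.0724), and it was called with DESeq2, with sample weights and without GMP 5 (range 0.0267 to 0.205).

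The oligoadenylate synthetases, which sense double-stranded RNA and make the second messenger that activates RNase L, held 3 of the 5 genes that passed. These were 3 of 7 tested IFIT and OAS genes (42.9%), against 13.9% of all tested genes. With limma voom it was 2 of 7 (28.6%), against 13.0%. Oas1a stood at 14.6, 16.9 and 14.3 CPM against 26.2, 28.2 and 37.8 CPM. The groups were clearly apart, with a mean 2.02-fold higher in GMP-derived libraries (log2 fold change -1.01 ± 0.16, edgeR adjusted p = 0.00570), and the call held in all 13 alternatives (up to 0.0309).

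Oas1g was far lower, at 0.423, 0.392 and 0.250 CPM (23 counts in all) against 0.984, 1.78 and 6.51 CPM (306 counts). GMP 19 held most of these counts, and the log2 fold change of -3.13 ± 0.80 (edgeR adjusted p = 0.0321) was -1.97 without it. The call was lost with limma voom (0.0913) and without LSK 44 (0.0942), LSK 45 (0.0814) or LSK 46 (0.112), in a range from 0.000457. Oas1a and Oas1g are near copies: 57.6% of the 50-base stretches of the longest Oas1a transcript also occur in Oas1g. Reads may therefore have been lost or divided between them.

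Oas2 was at 1.57, 2.87 and 0.750 CPM against 6.11, 4.27 and 10.9 CPM, with no overlap (log2 fold change -2.03 ± 0.55, edgeR adjusted p = 0.0387). It lost its call with no filter (0.0578) and without LSK 44 (0.125), LSK 46 (0.0846), GMP 5 (0.0595) or GMP 19 (0.0989), in a range from 0.00103. Its neighbour Oas3 was at 2.06, 2.79 and 3.62 CPM against 2.25, 4.24 and 6.13 CPM and did not pass (edgeR adjusted p = 0.320). Oas1a, Oas1g, Oas2 and Oas3 lie within 10 protein-coding genes of each other on chromosome 5. Oasl2, an OAS-like gene, was at 0.907 to 1.30 CPM against 0.980 to 2.87 CPM and did not pass (0.384), and Oasl1 had 11 LSK-derived and 10 GMP-derived counts.

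IFIT1 binds viral RNA whose cap lacks the host's ribose methylation, and IFIT2 and IFIT3 are its relatives. Ifit2 was at 6.71, 8.67 and 8.08 CPM against 11.2, 9.05 and 12.8 CPM, without overlap, and did not pass (log2 fold change -0.49 ± 0.18, edgeR adjusted p = 0.0853, in a range of 0.0632 to 0.229). Ifit1 was at 0.242, 0.824 and 0.250 CPM against 1.15, 0.623 and 1.03 CPM. These rest on 31 and 84 counts (edgeR adjusted p = 0.194), and it was called without LSK 45 (0.0351, in a range up to 0.440). Ifit3 had 19 and 20 counts, and 51.2% of its 50-base stretches are shared with Ifit3b.

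Isg15 and Usp18, which are commonly used to mark an interferon response, were low in both groups. Isg15 encodes a ubiquitin-like modifier and was at 1.15, 2.08 and 1.67 CPM against 1.64, 0.861 and 2.11 CPM (log2 fold change 0.10 ± 0.39, edgeR adjusted p = 0.875). Usp18, which encodes the protease that removes ISG15 and restrains the type I receptor, was at 1.62 to 1.92 CPM against 1.22 to 2.26 CPM (adjusted p = 0.862). Both had overlapping groups. Neither passed in DESeq2 or limma voom with or without sample weights, and neither had an unadjusted p below 0.05.

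Of 8 tested genes in a mixed group of antiviral effectors none passed edgeR's test; Rsad2 alone had an unadjusted p below 0.05 and was called by DESeq2, and limma voom called none. Mx1 and Mx2 are genes of the MX family of GTPases. Mx1 was at 0.726, 0.981 and 0.292 CPM against 0.369, 0.445 and 0.762 CPM (44 and 50 counts, edgeR adjusted p = 0.674), and Mx2 had 16 and 24 counts. Rsad2, which encodes viperin, an enzyme that makes a chain-terminating nucleotide, was at 0.363, 1.45 and 0.916 CPM against 4.39, 1.51 and 2.84 CPM. GMP 5 was highest and GMP 11 only just above LSK 45 (log2 fold change -1.63 ± 0.55, edgeR adjusted p = 0.0707), and DESeq2 called it (0.0272, in a range up to 0.183). Rtp4 was below 1 CPM in every library (19 and 51 counts, adjusted p = 0.293), Xaf1, which encodes an antagonist of the inhibitor of apoptosis XIAP, was at 1.64 to 3.25 CPM over all libraries (0.913), and Ifi44 had 3 and 2 counts.

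The other effectors were more abundant. Bst2 encodes tetherin, which holds budding virions at the cell surface, and was at 29.2, 22.5 and 26.8 CPM against 25.0, 31.9 and 30.5 CPM (log2 fold change -0.16 ± 0.14, edgeR adjusted p = 0.430). Ifi35 was at 21.5 to 22.4 CPM against 20.3 to 23.8 CPM (adjusted p = 0.820). Parp14, an ADP-ribosyltransferase gene, was at 21.3 to 26.9 CPM against 13.9 to 24.1 CPM, and GMP 5 was the low library (0.380). Trim30a, a TRIM family gene, was at 26.3, 35.3 and 28.1 CPM against 40.9, 30.3 and 44.9 CPM (log2 fold change -0.37 ± 0.18, adjusted p = 0.163). The groups overlapped for all 4.

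Of the interferon regulatory factors in the set, Irf1, Irf7 and Irf9, none passed edgeR's test, DESeq2 or limma voom. None of them had an unadjusted p below 0.05. Irf5, which is outside the set, did pass edgeR's test and is given below. Irf1, a factor that interferon gamma induces, was at 33.1, 39.6 and 32.4 CPM against 35.5, 36.2 and 35.9 CPM (log2 fold change -0.03 ± 0.10, edgeR adjusted p = 0.838). Irf9, a DNA-binding partner of STAT2, was at 20.9, 24.9 and 21.2 CPM against 23.6, 21.2 and 32.0 CPM (-0.20 ± 0.17, adjusted p = 0.433). Irf7, which amplifies interferon alpha production, was at 1.81, 3.30 and 1.79 CPM against 3.16, 2.85 and 7.53 CPM (-0.97 ± 0.46, adjusted p = 0.164). GMP 19 stood above the rest for Irf7, and the log2 fold change was -0.37 without it.

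The GTPases that interferon gamma induces, which attack the vacuoles of intracellular pathogens, had log2 fold changes of both signs. None of the 4 passed edgeR's test, with 1 on each side at an unadjusted p below 0.05, 1 called by DESeq2 and 0 by limma voom. Gbp3, a guanylate-binding protein gene, was at 51.8, 67.7 and 37.0 CPM against 95.9, 75.2 and 73.2 CPM. The groups did not overlap (log2 fold change -0.64 ± 0.23, edgeR adjusted p = 0.0845). Gbp3 was called with DESeq2, with sample weights and without LSK 45 (range 0.0175 to 0.197). Gbp2, beside it on chromosome 3, was at 2.84, 6.24 and 2.499 CPM against 2.79, 2.05 and 2.29 CPM. Its positive log2 fold change of 0.71 ± 0.38 (edgeR adjusted p = 0.211) was 0.17 without LSK 45.

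Igtp and Irgm1 are immunity-related GTPases. Igtp was at 12.6, 12.6 and 13.2 CPM against 10.6, 9.94 and 11.1 CPM, with the LSK-derived libraries above (log2 fold change 0.28 ± 0.11, edgeR adjusted p = 0.104). It was called with sample weights alone (0.0472, in a range up to 0.257). Its exons overlap those of Irgm2, with which it shares 12.3% of its 50-base stretches. Irgm1 was at 29.1, 35.5 and 29.9 CPM against 32.4, 34.2 and 42.7 CPM, with overlapping groups (edgeR adjusted p = 0.290).

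The interferon-induced transmembrane genes Ifitm1, Ifitm2 and Ifitm3, which block virus entry at membranes, had positive log2 fold changes, and none passed. Ifitm1 stood at 313, 423 and 270 CPM against 4.14, 66.8 and 159.7 CPM. Each LSK-derived library was above each GMP-derived one, while the GMP-derived libraries spread from 101 counts in GMP 5 to 5447 in GMP 19. The means were 335 ± 78.9 and 76.9 ± 78.3 CPM (SD, n = 3 each; log2 fold change 2.12 ± 1.03, edgeR adjusted p = 0.185). Without GMP 5 the log2 fold change was 1.56 and the gene was called (0.0453, in a range up to 0.382).

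Ifitm3 showed the same order of libraries, at 60.1, 96.1 and 53.3 CPM against 2.54, 17.3 and 40.9 CPM (log2 fold change 1.78 ± 0.84, edgeR adjusted p = 0.173). It was not called in any alternative (range 0.0653 to 0.367). Ifitm2, which lies with both on chromosome 7, was at 202, 240.2 and 203 CPM against 114, 174 and 227 CPM, and its groups overlapped (0.32 ± 0.24, adjusted p = 0.363). For all 3 genes GMP 5 was the lowest and GMP 19 the highest GMP-derived library. No IFITM gene had an unadjusted p below 0.05 or was called by DESeq2 or limma voom with or without sample weights.

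Per kilobase of the longest transcript, the IFITM genes were the most abundant of the tested set in LSK-derived libraries, whereas in GMP-derived ones Bst2 and Gbp3 lay above Ifitm3. Ifitm1 had a mean of 380 CPM per kb in LSK-derived and 87.1 in GMP-derived libraries, Ifitm2 at 328 and 262, and Ifitm3 at 103 and 29.8. Bst2 was at 33.0 and 36.8 CPM per kb, Gbp3 at 19.5 and 30.4, Irf1 at 16.4 and 16.8, and Ifi35 at 16.1 and 16.4. Oas1a was at 8.09 and 16.3 CPM per kb. Isg15 was at 2.16 and 2.03 CPM per kb, and Ifit1, Oas1g in the LSK-derived libraries, Mx1 and Rtp4 were at 0.351 CPM per kb or less. For Ifitm2, 48.5% of the 50-base stretches occur in other annotated transcripts, so its level is less certain.

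**Figure D3:**
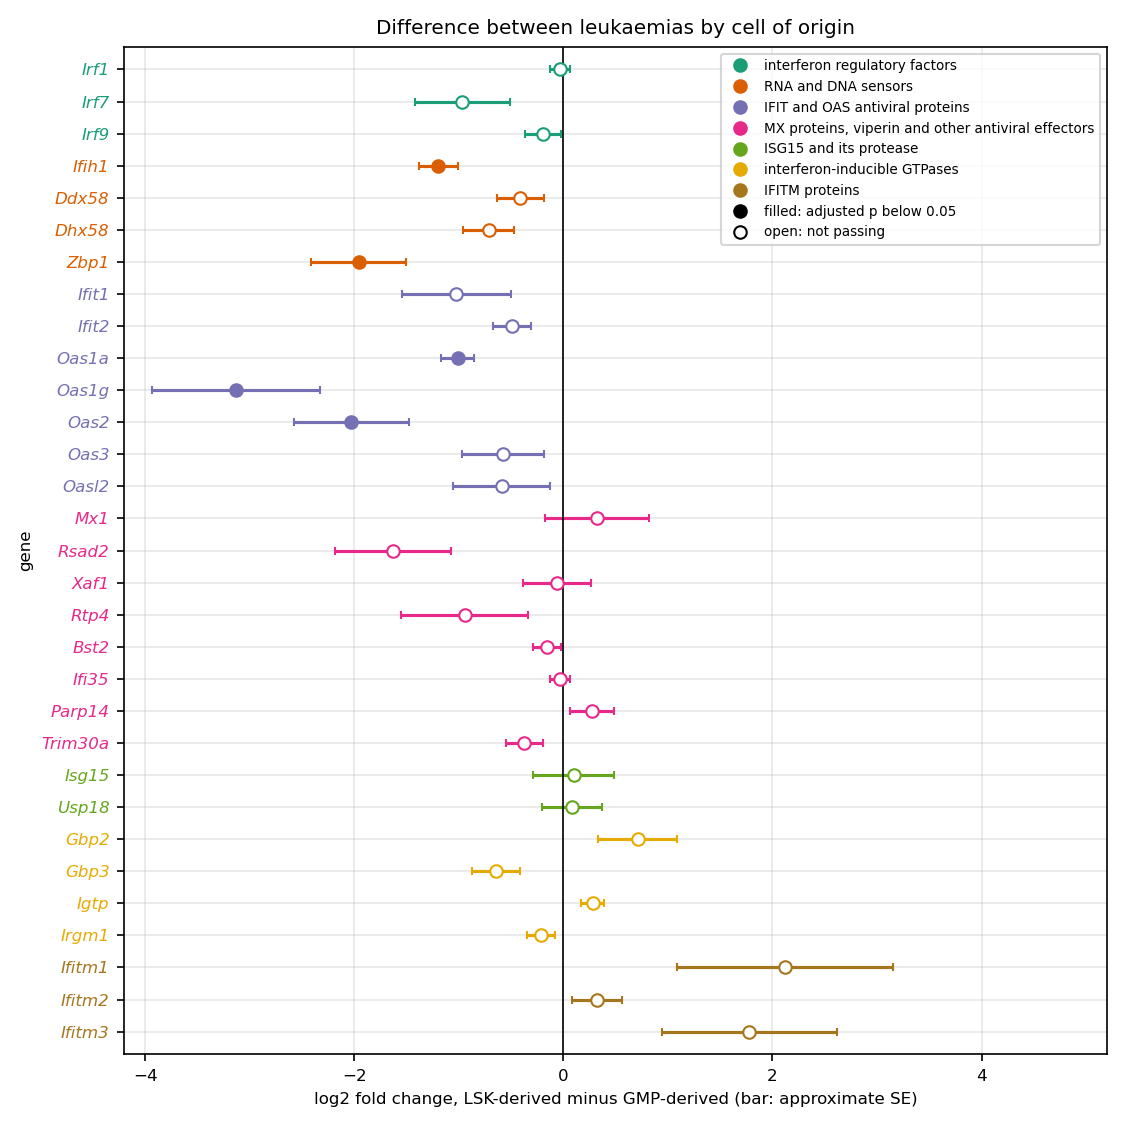
Log2 fold change (LSK-derived minus GMP-derived) of the 31 tested genes with an approximate SE, coloured by role; filled points passed at an adjusted p below 0.05. The 5 filled points, Ifih1, Zbp1, Oas1a, Oas1g and Oas2, lie left of 0, and the IFITM genes lie right of it with wide bars for Ifitm1 and Ifitm3.

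Within each group a single library held the highest level of most of these genes. LSK 45 was the highest LSK-derived library for 27 of 31 genes, whereas it was the highest for 38.1% of all tested genes. The median gene was 1.25-fold above the mean of LSK 44 and LSK 46 on the log2(CPM + 0.5) scale. The exceptions were Bst2, Igtp, Oas1g and Oas3. GMP 19 was the highest GMP-derived library for 24 of 31 genes, against 35.8% of all tested genes, and the median gene was 1.39-fold above GMP 5 and GMP 11. GMP 5 was the highest for 5 genes (Zbp1, Ifit1, Rsad2, Gbp2 and Gbp3) and GMP 11 for 2 (Irf1 and Bst2).

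A separate list of other interferon-stimulated genes showed the same libraries on top, with LSK 45 highest for 27 and GMP 19 highest for 28 of 40 tested genes. Among the 31 genes the median SD of log2(CPM + 0.5) between libraries was 0.22 for LSK-derived and 0.36 for GMP-derived leukaemias, against 0.13 and 0.15 for all tested genes. The 31 genes had a median of 9.43 CPM against 27.1 CPM for all. Low counts can widen such a spread, and their part here was not tested. Myeloid markers also differed between libraries of a group, and not all in the same order. Mpo was at 791 CPM in LSK 45 against 1406 and 824 CPM in LSK 44 and LSK 46. In GMP 19 Mpo was at 504 CPM, against 13.8 and 314 CPM in GMP 5 and GMP 11. Itgam, the CD11b gene, was at 308 CPM in LSK 45 against 144 and 126 CPM in LSK 44 and LSK 46, and at 426 CPM in GMP 19 against 258 and 221 CPM in GMP 5 and GMP 11. Emr1, which encodes the macrophage marker F4/80, was at 43.4 CPM in LSK 45 against 14.1 and 11.8 CPM, and at 159.0 CPM in GMP 5, 29.9 CPM in GMP 11 and 79.7 CPM in GMP 19. Marker levels of single libraries and marker sums are scaled to the deposited totals, without TMM, whereas group means and fold values of markers use TMM. Complement genes C1qa, C1qb and C1qc stayed below 0.8 CPM in every library, with 35 LSK-derived and 6 GMP-derived counts for C1qb. The summed macrophage list was at 14.6 to 46.9 CPM among LSK-derived and 30.9 to 159.5 CPM among GMP-derived libraries, mostly Emr1. Emr1 overlapped between groups and did not pass edgeR's test (adjusted p = 0.113). Mrc1, the other of these 8 markers that was tested, was higher in LSK-derived libraries (1.91 against 0.693 CPM, edgeR adjusted p = 0.0494). In bulk RNA, fewer cells of a kind and less RNA per cell cannot be told apart, and the part of these markers in the interferon genes was not tested.

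**Figure D4:**
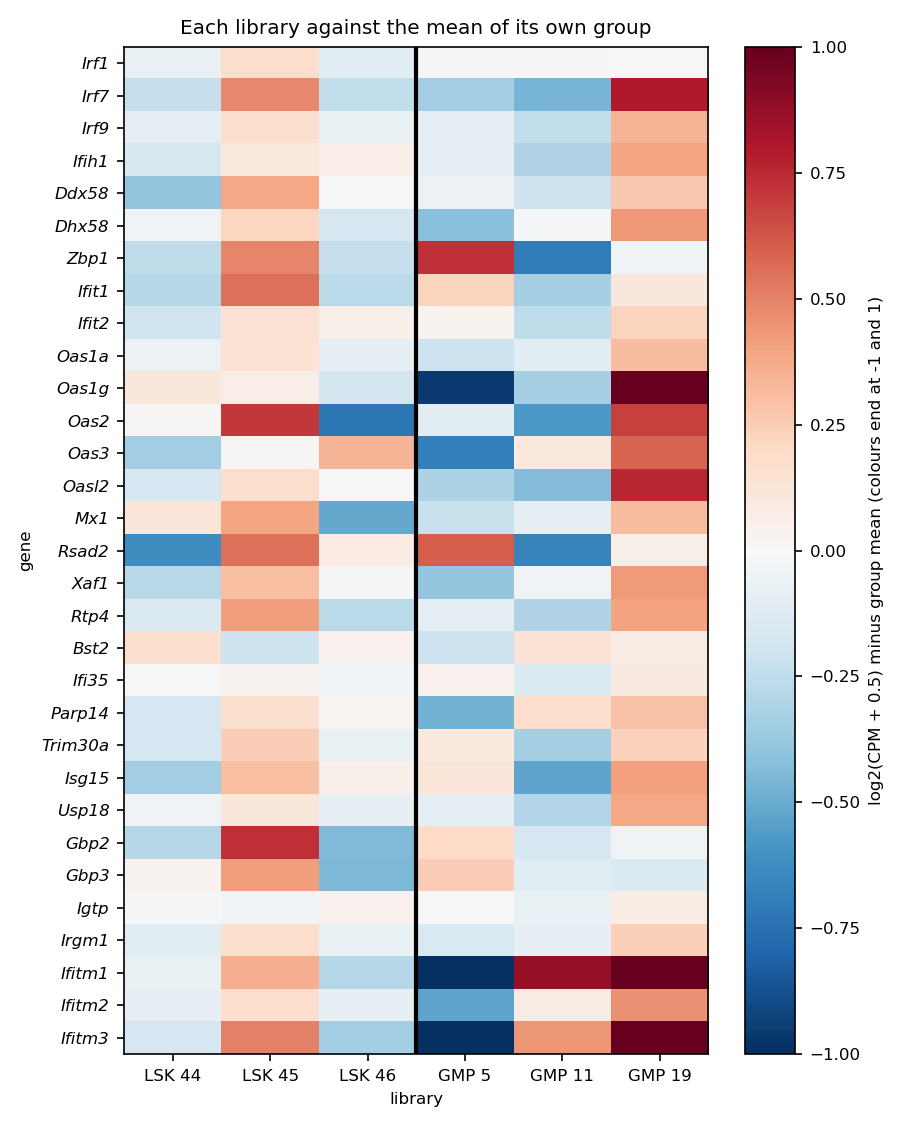
Log2(CPM + 0.5) of each tested gene in each library minus the mean of its own group, from -1 (blue) to 1 (red). The columns of LSK 45 and GMP 19 are red for most genes (27 and 24 of 31 at the highest level of their group), and the IFITM genes are deep blue in GMP 5.

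The rest of the interferon pathway was taken from lists of ligands, receptors, kinases and STAT factors, sensing genes, feedback genes and other interferon-stimulated genes. Of 111 such genes with a row, 79 were tested; 18 passed as higher in LSK-derived and 14 as higher in GMP-derived leukaemias. These shares of 22.8% and 17.7% compare with 11.8% and 13.9% of all tested genes. Of these 32 calls 16 held in every alternative, and the others are marked below where they are named.

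Interferon ligand genes had almost no counts. Of 21 with a row, 18 had 0 counts in all 6 libraries. Ifnb1 had 1 count in the LSK-derived group, and Ifnab and Ifnk had 5 between them in the GMP-derived group. The interferon alpha genes share sequence, so counts may have been lost among copies. The receptor genes for type I and type II interferon were detected in all libraries and did not pass edgeR's test. Ifngr1, which encodes the ligand-binding chain for interferon gamma, was at 389, 449 and 316 CPM against 428, 424 and 408 CPM (edgeR adjusted p = 0.489). Ifnar2 was at 85.7, 113 and 85.7 CPM against 103, 131 and 139.2 CPM (0.104), and Ifnar1 at 87.4 to 120 CPM against 100.1 to 131 CPM (0.456). Il10rb, which encodes a chain shared by the receptors for interferon lambda and IL-10, was the 1 receptor gene of 5 that passed edgeR's test, 1.43-fold higher in GMP-derived libraries (49.6 ± 3.41 against 71.2 ± 7.49 CPM, adjusted p = 0.0116). It lost the call without LSK 44 (0.0529) or LSK 46, in a range from 0.000146. With limma voom and sample weights, 3 of the 5 receptor genes (60.0%) were called higher in GMP-derived libraries, against 16.7% of all tested genes. In edgeR's test these shares were 20.0% and 13.9%.

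Stat2, which encodes a transcription factor of the type I response, was higher in GMP-derived leukaemias. It stood at 45.6, 52.0 and 45.7 CPM against 65.4, 68.1 and 74.7 CPM (log2 fold change -0.54 ± 0.09, edgeR adjusted p = 0.00659). The groups were clear of each other and the call held in all 13 alternatives. The kinases divided: Jak1 was 1.21-fold higher in GMP-derived libraries (169.7 ± 3.62 against 205 ± 15.6 CPM, adjusted p = 0.0366), and Jak2 1.62-fold higher in LSK-derived ones (67.9 ± 9.45 against 41.9 ± 7.62 CPM, adjusted p = 0.0188). The Jak1 call was lost in 6 of 13 alternatives, with a range of 0.00875 to 0.126, and that of Jak2 without LSK 46 (0.0645) or GMP 11, in a range from 0.000393. Tyk2 and Stat3 did not pass.

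Among 15 tested genes of sensing upstream of interferon, 3 (20.0%) were higher in GMP-derived libraries and 1 (6.67%) in LSK-derived ones by edgeR's test. The shares of all tested genes were 13.9% and 11.8%. With DESeq2 the counts were 6 (40.0%) and 2 (13.3%), against 16.3% and 14.0% of all tested genes. Irf5, a factor that drives inflammatory cytokines in myeloid cells, was at 9.38, 9.22 and 9.33 CPM against 18.6, 22.3 and 33.2 CPM (log2 fold change -1.41 ± 0.21, edgeR adjusted p = 0.00517). Ticam1, the TRIF adaptor of Toll-like receptors, was 1.62-fold higher in GMP-derived libraries (22.6 ± 1.29 against 36.6 ± 4.32 CPM, adjusted p = 0.00555). Tbk1, the kinase that activates IRF3, was 1.27-fold higher there (adjusted p = 0.0149; lost without LSK 44 or without LSK 46, at 0.0652, in a range from 0.000658). Tmem173, which encodes the DNA-sensing adaptor STING, was at 147, 194 and 136 CPM against 94.7, 105 and 108 CPM and higher in LSK-derived libraries (0.63 ± 0.14, adjusted p = 0.0183; 0.0501 without GMP 11, in a range from 0.000313).

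Of 13 tested genes that restrain interferon responses, 4 (30.8%) were higher and 1 (7.69%) was lower in LSK-derived libraries by edgeR's test. The shares of all tested genes were 11.8% and 13.9%. Trim28, a corepressor that silences endogenous retroelements, was at 702, 643 and 692 CPM against 464, 496 and 445 CPM (log2 fold change 0.54 ± 0.07, edgeR adjusted p = 0.00318). Samhd1, which degrades deoxynucleotides, was 1.28-fold higher (90.6 ± 4.14 against 70.6 ± 1.92 CPM, adjusted p = 0.00974). Rnaseh2a and Pias1 were 1.21-fold and 1.22-fold higher, calls lost in 6 of 13 alternatives each (adjusted p up to 0.105 and 0.0979). The lower gene, Ptpn6, which encodes the phosphatase SHP-1, passed narrowly (adjusted p = 0.0489) and in 4 of 13 alternatives (range 0.00907 to 0.132). Trex1 was listed at 0 counts in all libraries, but its exons overlap those of Atrip and 95.6% of its 50-base stretches occur there.

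Other interferon-stimulated genes were higher in the LSK-derived leukaemias in 12 of 40 tested cases (30.0%, against 11.8% of all tested genes). They were lower in 6 (15.0%, close to the 13.9% of all tested genes). By smallest p these were led by Ly6e, Ifi47, Ifi203 and Lgals3bp. Ly6e, a surface protein gene that limits coronavirus entry, was at 1017, 1075 and 1026 CPM against 619, 463 and 507 CPM (log2 fold change 0.97 ± 0.11, edgeR adjusted p = 0.00191). Ifi47, an immunity-related GTPase gene, was at 31.3, 30.9 and 36.7 CPM against 3.93, 9.62 and 7.33 CPM (2.24 ± 0.31, adjusted p = 0.00426). Ifi203, of the DNA-binding p200 family, was 4.59-fold higher (11.9 ± 1.46 against 2.59 ± 1.10 CPM) and Lgals3bp, a secreted glycoprotein gene, 4.70-fold higher (50.7 ± 12.4 against 10.8 ± 4.33 CPM). All 4 calls held in every alternative.

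The GTPases on this list, singled out after their values were seen, all had positive log2 fold changes. Of 9 tested, 6 were higher in LSK-derived libraries (Ifi47, Irgm2, Tgtp2, Gbp5, Gbp6 and Gbp7) and Gbp4, Gbp8 and Gbp9 did not pass. Those 6 are 66.7%, against 11.8% of all tested genes, in a group picked by its values. Gbp5, which assembles on bacteria and promotes inflammasome activation, was at 9.98, 18.9 and 6.71 CPM against 1.15, 0.891 and 2.02 CPM (log2 fold change 3.12 ± 0.49, edgeR adjusted p = 0.00657). Irgm2 was at 18.6, 18.6 and 17.9 CPM against 10.2, 9.91 and 12.4 CPM (0.76 ± 0.12, adjusted p = 0.00643). The calls of Gbp5, Irgm2, Tgtp2 and Ifi47 held in every alternative. Gbp7 lost its call in 3 alternatives and Gbp6 in 5 (adjusted p up to 0.0714 and 0.118). Sequence copies make Tgtp2 and Gbp6 uncertain, with 90.6% and 59.7% of their 50-base stretches found in other genes. Among the 35 genes, the GTPase genes Gbp2, Gbp3, Igtp and Irgm1 did not pass edgeR's test, with the exceptions for Gbp3 and Igtp under other settings given above.

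The 6 lower genes were Ifi30, Oas1c, Cxcl10, Samd9l, Isg20 and Herc6. Ifi30, a lysosomal thiol reductase gene of antigen processing, was higher in GMP-derived libraries (18.8 ± 6.70 against 56.4 ± 5.87 CPM, log2 fold change -1.59 ± 0.24, edgeR adjusted p = 0.00598). Oas1c, a further oligoadenylate synthetase family gene, was 1.92-fold higher there (5.90 ± 0.928 against 11.3 ± 0.430 CPM, adjusted p = 0.00697). Cxcl10, a chemokine gene, was at 0.363, 0.275 and 0.125 CPM against 0.943, 1.75 and 2.87 CPM (16 and 180 counts, adjusted p = 0.0112). Those 3 calls held in every alternative in which the gene was tested. Samd9l, Isg20 and Herc6 lost theirs in 2, 3 and 5 alternatives. Other transcripts hold 16.3% of the 50-base stretches of Oas1c and 23.8% of those of Herc6.

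**Figure D5:**
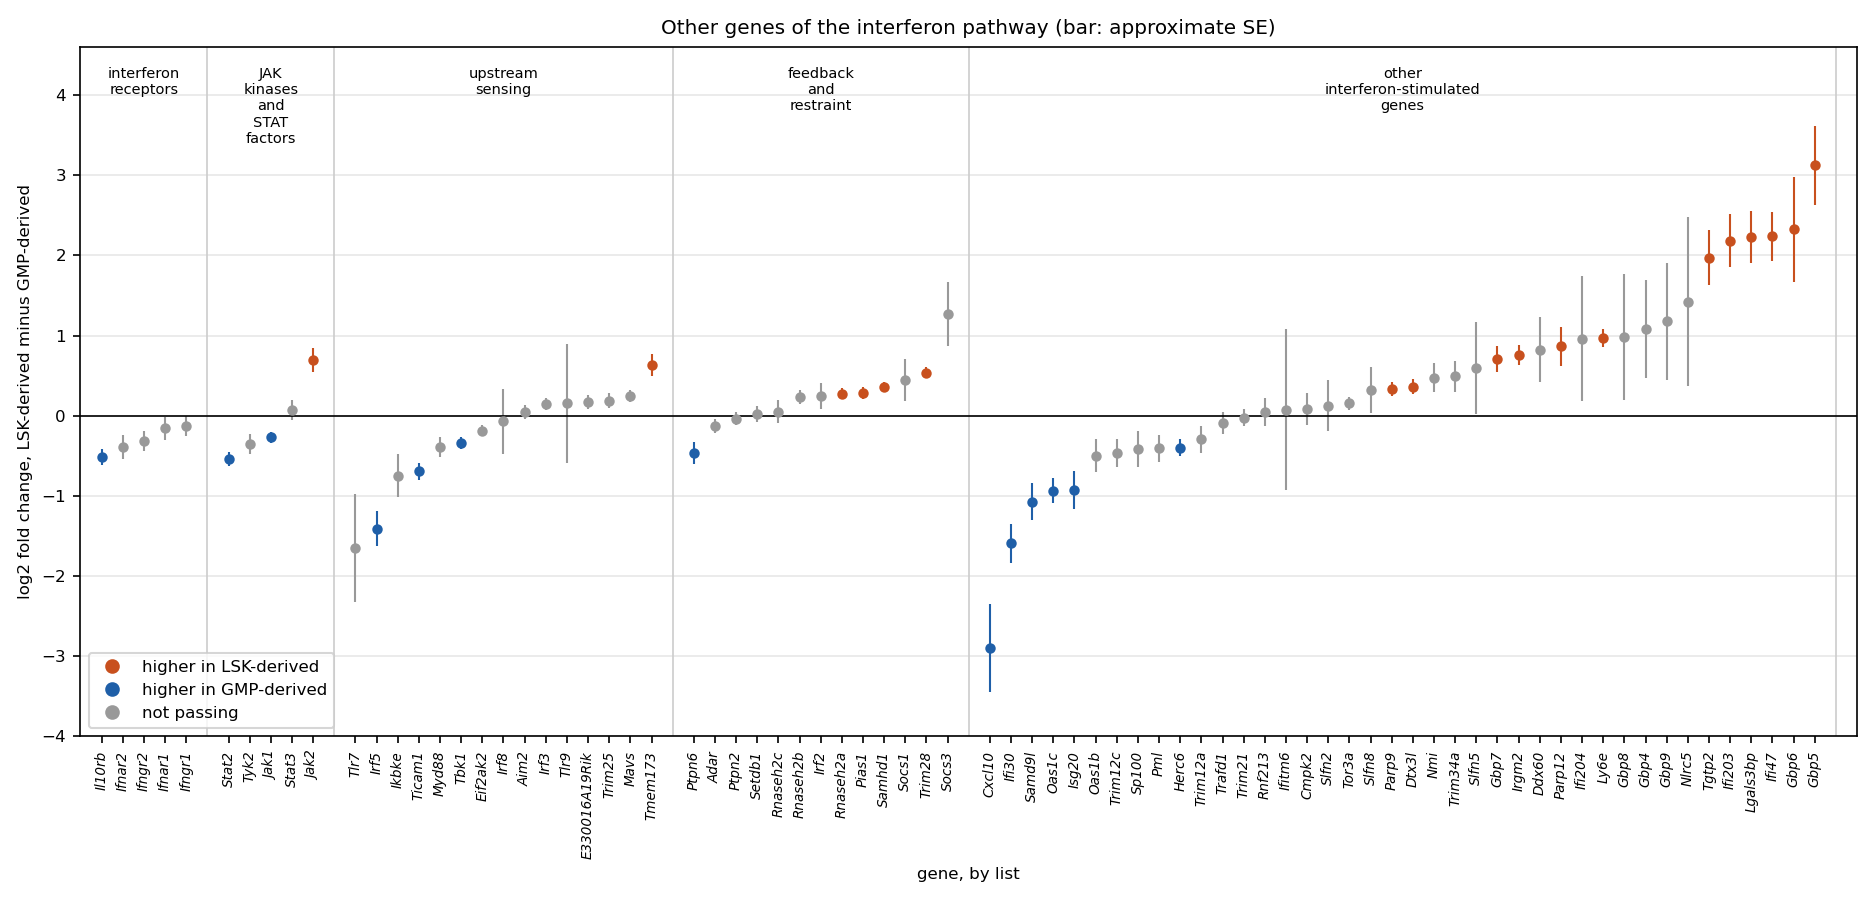
Log2 fold change (LSK-derived minus GMP-derived) with an approximate SE of 78 tested genes of the interferon pathway outside the set of 35, by list. Blue points (13) passed as higher in GMP-derived and orange points (18) as higher in LSK-derived libraries; Stat2, Irf5 and Cxcl10 are blue, and Ifi47, Gbp5 and Ly6e are orange.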

How the data were processed

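Values are raw counts per gene symbol, in 1 table that the authors deposited for all 6 libraries. The submitters' processing notes name mm9 as the genome build and list STAR (2.4), HTSeq (0.6.1) and DESeq2 without saying what each did. Strand setting and annotation: not given in the sources used here, so reads of overlapping genes (among them Irf7 with Phrf1, Irf9 with Rnf31, Igtp with Irgm2, Parp9 with Dtx3l) may be assigned to either or lost. The main test was that of edgeR 4.0.16, run in R 4.3.3 (filterByExpr, TMM, robust glmQLFit, glmQLFTest, no covariate), with Benjamini-Hochberg adjustment over 13406 genes and a threshold of 0.05. The standard error was taken as the size of the log2 fold change over the root of its F statistic. CPM are counts over the TMM-scaled total of tested genes. Marker levels of single libraries, marker sums and 3-count floors use deposited totals. The 35 genes, the lists and the tests were chosen with earlier results of these data known. All genes of the set are accounted for; of the related genes, up to 4 called per list by smallest p, or the 2 with most counts where fewer than 2 passed, are given in full, and others named complete a count or are marked. Alternatives used DESeq2 1.42.0, limma 3.58.1, other scalings and filters, and 5 of the 6 libraries. The edgeR step was checked on counts simulated from its own model. That tests the code and not how well the model describes these libraries. Transcript lengths and shared 50-base stretches come from GENCODE M21 and promoters from RefSeq, both on GRCm38, a later build than mm9. No sequence was taken by coordinates. The values of 1 related gene are not reported here; it stays in the counts over the lists and is left out of the plot of the pathway.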

Additional observations from a re-analysis of the deposited data

How the results depend on the processing

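Among the 31 tested genes, Ifih1 and Oas1a were called in all 13 alternatives, Zbp1, Oas1g and Oas2 were lost in some, and 6 of the 26 others (Dhx58, Ifit1, Rsad2, Gbp3, Igtp and Ifitm1) were called in at least 1. No called gene changed direction. The count higher in GMP-derived libraries, 5, was 8 with DESeq2, 3 with limma voom and between 2 and 6 when a library was left out (2 without LSK 44 or LSK 46, 3 without GMP 19). The count higher in LSK-derived libraries, 0, was 1 with limma voom and sample weights and between 0 and 1 when a library was left out (1 without GMP 5). When a library was left out, between 770 and 1523 of all genes were called higher and between 973 and 1944 lower, against 1577 and 1867. The lowest of these came without LSK 44 (857 and 973) or LSK 46 (770 and 980). For the related genes the ranges were 10 to 18 and 7 to 17, against 18 and 14, with 11 higher without LSK 46 or GMP 5, 10 without GMP 11, 7 lower without LSK 44 and 8 without LSK 46. The median log2 fold change of the set, -0.37, was -0.12 without GMP 19, -0.24 without LSK 44, -0.51 without LSK 45 or without GMP 11 and -0.21 with genes of at least 1 CPM in 3 libraries. The alternatives for single related genes were added after the data were seen. Leaving out a library also leaves fewer samples. Other scalings moved the median of all genes to at most 0.04 on the log2 scale. No paired analysis was possible because the groups share no replicate number. Genes below about 1 CPM rest on few counts per library, and differences there may not be detectable at this depth.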
